A study of Arabidopsis thaliana and Brassica oleracea with 14 samples.

Results

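Leaves of droughted and watered Arabidopsis thaliana were compared on macroarrays, membranes spotted with DNA probes to which radioactively labelled cDNA is hybridised. The comparison comprised the 7 A. thaliana arrays of a series of 14, chosen by sample title: 4 arrays titled control and 3 titled drought. The other 7 arrays carried Brassica oleracea leaf RNA. All 7 A. thaliana samples were wild-type Col-0 plants aged 4 weeks under a 16 h photoperiod. Drought plants had gone 5 days without water, to a leaf relative water content of 45% on average with a spread of 15, while control plants were watered regularly. Each RNA preparation came from leaves of 5 plants, preparations were pooled, and 10 µg was labelled with 33P. The series design speaks of biological replicates, but which pool went onto which array is not stated. The p-values therefore describe array-to-array spread, part of which may be technical.

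The title of the series names the genes of type 2C protein phosphatases (PP2Cs). When leaves lose water, the hormone abscisic acid accumulates and its receptors bind and inhibit the clade A PP2Cs. Those phosphatases otherwise hold SnRK2 kinases inactive, so their inhibition releases the kinases, which phosphorylate transcription factors of the dehydration response and ion channels that act in stomatal closure. Many clade A PP2C transcripts are themselves known to rise in droughted Arabidopsis leaves, while transcripts for photosynthesis commonly fall. None of these genes could be looked up here, because no gene name is attached to a spot. Results are therefore given by position (row letter and column number), and the leaf markers could not be checked.

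Each array holds 768 spots in 16 rows and 48 columns. Adjacent columns were averaged as 1 probe, giving 24 position pairs in each row, and every pair was tested. The 96 pairs of the even-lettered rows at columns 25 to 48 carry little signal and are called the low block. A pair was counted as above the low block if its signal over background passed the 95th percentile of those 96 pairs on the same array. Of the pairs outside the low block, 21 were above it on all 7 arrays and 27 on none. Signal was background-corrected, quantile normalized over the 7 arrays and is given on the log2 scale. Changes are drought minus control, and the offset of 17.7 units added to every spot makes them understate changes of dim pairs.

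The array labelled control replicate 3 went against its label. Over the 21 pairs above the low block on every array, controls 1, 2 and 4 ranked the pairs alike, with Spearman correlations of 0.952 to 0.974 among themselves. The drought arrays also ranked them alike, at 0.879 to 0.969. Control 3 correlated at 0.887 to 0.935 with the drought arrays and at 0.318 to 0.419 with the other controls, while controls 1, 2 and 4 stood at 0.316 to 0.526 with the drought arrays. These 21 points share their array's exposure and background and give no p. Over all pairs outside the low block, most of them dim, control 3 correlated at 0.428 to 0.840 with drought and at 0.360 to 0.604 with the other controls. Controls 1, 2 and 4 correlated at only 0.322 to 0.481 among themselves there, so over these mostly dim pairs control 3 was no less like the other controls than they were like each other.

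**Figure D1:**
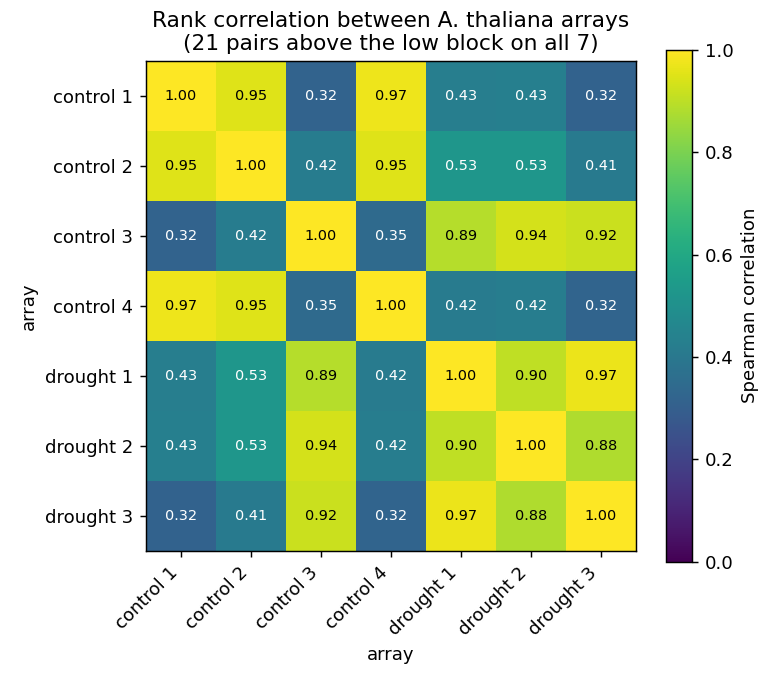
Spearman correlation between each pair of the 7 arrays over the 21 position pairs above the low block on all of them, with both axes listing the arrays. Controls 1, 2 and 4 form one block of high values (0.95 to 0.97), and control 3 and the 3 drought arrays form another (0.88 to 0.97).

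A second reading, in which the array in question takes no part in choosing the pairs, gave the same placement. Each array was left out in turn, the 20 pairs with the smallest p among the remaining arrays were taken, and the array was placed by its distance to the mean of its own group and of the other group. Control 3 lay nearer to the drought mean at 19 of the 20 pairs. Controls 1, 2 and 4 lay nearer to the other controls at 15, 18 and 17 of 20. Drought replicates 1 and 3 lay nearer to their own group at 12 and 14 of 20. Drought replicate 2, whose deposited background is 0 at every spot, lay nearer to its own group at 7 of 20. Control 3 also had much the strongest image: the highest total reached 154724 units there, compared with 4150 to 5066 on controls 1, 2 and 4 and 6593 to 35524 under drought. Results are given with all 7 arrays and then without control 3. Leaving it out is a choice made knowing how it reads, and the calls it yields are no independent evidence for a drought effect.

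With all 7 arrays, no position pair passed the test for a drought change. limma's moderated test with Benjamini-Hochberg adjustment called 0 pairs, or 0% of those tested, and the smallest adjusted p was 0.449. Before adjustment, 32 pairs (8.33%) had a p under 0.05, 17 of them higher (4.43%) and 15 lower (3.91%). Treating the spots of a pair as separate measurements with an estimated correlation called 5 pairs, 1 higher and 4 lower. That fit used 1 correlation, 0.364, for every pair, so p is too small where the spots of a pair agree more closely. Among the 5, the spots changed by -2.70 and -2.82 at K15/K16, by -1.91 and -1.84 at O21/O22 and by 0.77 and 1.05 at A7/A8. All drought arrays lay above all controls at 8 pairs (2.08%) and below them at 14 (3.65%). The median absolute change was 0.23 log2 units, and the 95% interval of a change reached a median of 0.58 log2 units to each side. In leaf RNA of this kind, fewer cells of a type and less RNA per cell cannot be told apart.

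The pair with the largest fall was K15/K16, whose normalized signal was high on controls 1, 2 and 4 and low on the other 4 arrays. Its normalized signal was 11.96, 11.48, 7.95 and 11.19 on controls 1 to 4 and 8.03, 7.62 and 8.0 on drought 1 to 3. The fitted change was -2.76 (SE 0.85, 95% interval -4.70 to -0.82, limma adjusted p = 0.456). On the normalized scale control 3 lay within the range of the drought arrays. Before normalization it did not, and K15 and K16 had 1098 and 1187 units over background on control 3. They had 701 to 843 units on controls 1, 2 and 4 and 66 to 418 under drought. On drought 2, with its deposited background of 0, the values (217 and 211) are totals with nothing subtracted. Control 3 is thus low at this pair only relative to the rest of its own, much stronger image.

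The same layout was seen at L23/L24 and C19/C20. L23/L24 read 11.19, 10.48, 7.03 and 10.72 on the controls and 7.23, 6.78 and 7.32 on the drought arrays, for a fitted difference of -2.74 (SE 0.89, limma adjusted p = 0.456). C19/C20 read 12, 10.72, 7.45 and 10.36 on the controls and 8.09, 7.84 and 7.98 on the drought arrays, for a fitted difference of -2.16 (SE 0.89, limma adjusted p = 0.529). At both pairs the normalized signal of control 3 was lower than that of the other controls, and the groups overlapped only through it. In units over background, L23 and L24 stood at 386 and 331 on control 3. That lies between the other controls (649 to 708) and the drought arrays (26 to 190).

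At O21/O22 and G19/G20 each drought array read below each control. O21/O22 read 9.95, 9.43, 7.95 and 9.38 on the controls and 7.03, 7.66 and 7.22 on the drought arrays, for a fitted difference of -1.88 (SE 0.44, limma adjusted p = 0.449). This pair passed the low-block limit on all 7 arrays, and control 3 was the nearest control to the drought values. G19/G20 read 9.34, 8.81, 6.89 and 9.32 on the controls and 6.70, 6.29 and 6.46 on the drought arrays, for a fitted difference of -2.11 (SE 0.56, limma adjusted p = 0.456). Only drought 1 passed the low-block limit there, so its drought level is mostly a limit of detection.

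The other leading pairs on the lower side were O19/O20, E29/E30, D15/D16, E15/E16, H13/H14 and E39/E40, with changes of -0.81, -1.35, -1.18, -1.05, -0.84 and -0.86. Their adjusted p was 0.456 in each case (limma). At E29/E30 the drought arrays read 7.25, 6.07 and 6.30 against a lowest control of 7.46, and 1 of 3 drought arrays was above the low block. E39/E40 was above it on 1 control and on none of the drought arrays, and by the limit of detection controls were at least 1.01-fold brighter.

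**Figure D2:**
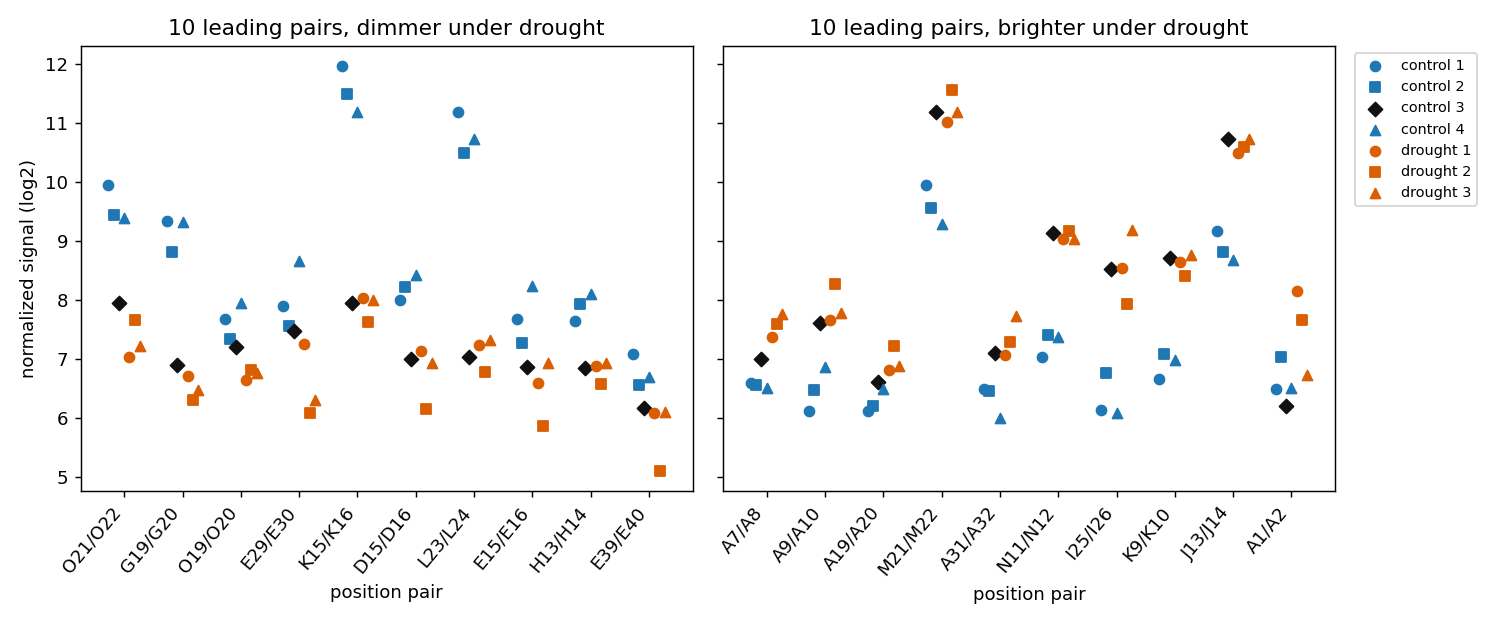
Normalized signal (log2, vertical axis) of the 10 leading pairs on each side (horizontal axis), with 1 point for each of the 7 arrays. Control 3 (black diamonds) stands among the drought arrays (orange) at K15/K16 (7.95) and L23/L24 (7.03), where the other controls (blue) lie between 10.48 and 11.96.

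On the higher side, the leading pairs were of 2 kinds by place on the membrane. The first kind was dim and lay in row A: A7/A8, A9/A10, A19/A20, A31/A32 and A1/A2, 5 of the 10 leading pairs. A7/A8 had the smallest p of all pairs and read 6.58, 6.55, 7.00 and 6.50 on the controls and 7.37, 7.58 and 7.76 on the drought arrays, for a fitted difference of 0.91 (SE 0.20, limma adjusted p = 0.449). With the larger offset that the 7 arrays alone would give, its difference was 0.39. Control 3 and all 3 drought arrays passed the low-block limit there. All 5 pairs were above the low block on 3 of 3 drought arrays and 1 of 4 controls. The whole of row A read high on drought 2, with a median of 7.31 over its 24 pairs against 6.35 to 6.70 on the other arrays, and rows B and C were also high on it (6.93 and 7.15). The median change of row A was 0.34 with all arrays and 0.11 without drought 2. The part of drought 2's background of 0 in these readings was not tested.

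The second kind was brighter and lay in rows I to N. M21/M22 read 9.94, 9.56, 11.19 and 9.29 on the controls and 11.01, 11.55 and 11.19 on the drought arrays, for a fitted difference of 1.25 (SE 0.42, limma adjusted p = 0.456). J13/J14 read 9.17, 8.80, 10.72 and 8.68 on the controls and 10.48, 10.59 and 10.72 on the drought arrays, for a fitted difference of 1.26 (SE 0.46, limma adjusted p = 0.456). Control 3 read with the drought arrays at both pairs. With cyclic loess in place of quantile normalization the differences were 0.32 at M21/M22 and 0.42 at J13/J14. N11/N12, K9/K10 and I25/I26 had changes of 1.35, 1.25 and 1.67, with control 3 again at drought level (9.13, 8.71 and 8.52). The largest fitted rise of all was at P47/P48, a pair of the low block named after its values were seen. It read 9.48, 8.03 and 6.20 on the drought arrays and 5.65 to 6.44 on the controls, so drought 3 lay within the range of the controls (limma adjusted p = 0.456).

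Without control 3, 22 pairs (5.73%) passed, 14 higher (3.65%) and 8 lower (2.08%). The 8 lower pairs were L23/L24, K15/K16, G19/G20, O21/O22, C19/C20, H13/H14, D15/D16 and G13/G14, with changes of -3.51 to -0.96. L23/L24 had a change of -3.51 with an SE of 0.24 and K15/K16 one of -3.42 (SE 0.24, limma adjusted p = 0.000152 for each). G19/G20 changed by -2.57 (limma adjusted p = 0.000624), O21/O22 by -2.19 (limma adjusted p = 0.00229) and C19/C20 by -2.89 (limma adjusted p = 0.00261). Each of these pairs was dimmer on 3 of 3 drought arrays than on controls 1, 2 and 4. Control 3, which took no part in these calls, lay nearer to the drought mean than to the mean of the other controls at all 8.

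The 14 higher pairs were N11/N12, J13/J14, K9/K10, I15/I16, M13/M14, L11/L12, M21/M22, I25/I26, K13/K14, K7/K8, K11/K12, A7/A8, A9/A10 and J11/J12, with changes of 0.98 to 2.14. Those in rows I to N at columns 7 to 26 numbered 12, among the 60 pairs of that region, whose bounds were chosen with the calls known. The 8 lower pairs all lay at columns under 25. The columns from 25 up include the 96 pairs of the low block, which carry little signal. No share over all pairs is given beside the count of 8, so it is not read as an effect of place. Clustering by position was not tested for either set. N11/N12 had the smallest p, with 7.03, 7.40 and 7.37 on controls 1, 2 and 4 and 9.03, 9.17 and 9.03 on the drought arrays, and changed by 1.72 (SE 0.19, limma adjusted p = 0.00229). J13/J14 changed by 1.66 (limma adjusted p = 0.00261) and M21/M22 by 1.51 (limma adjusted p = 0.00785). Control 3 lay nearer to the drought mean at 13 of the 14. With drought 2 left out as well, 30 pairs (7.81%) passed, 19 higher (4.95%) and 11 lower (2.86%), and 21 of the 22 were among them. No other array had this effect: without any one of the other 6 arrays, limma called 0 pairs, with 16 to 28 at an unadjusted p under 0.05.

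**Figure D3:**
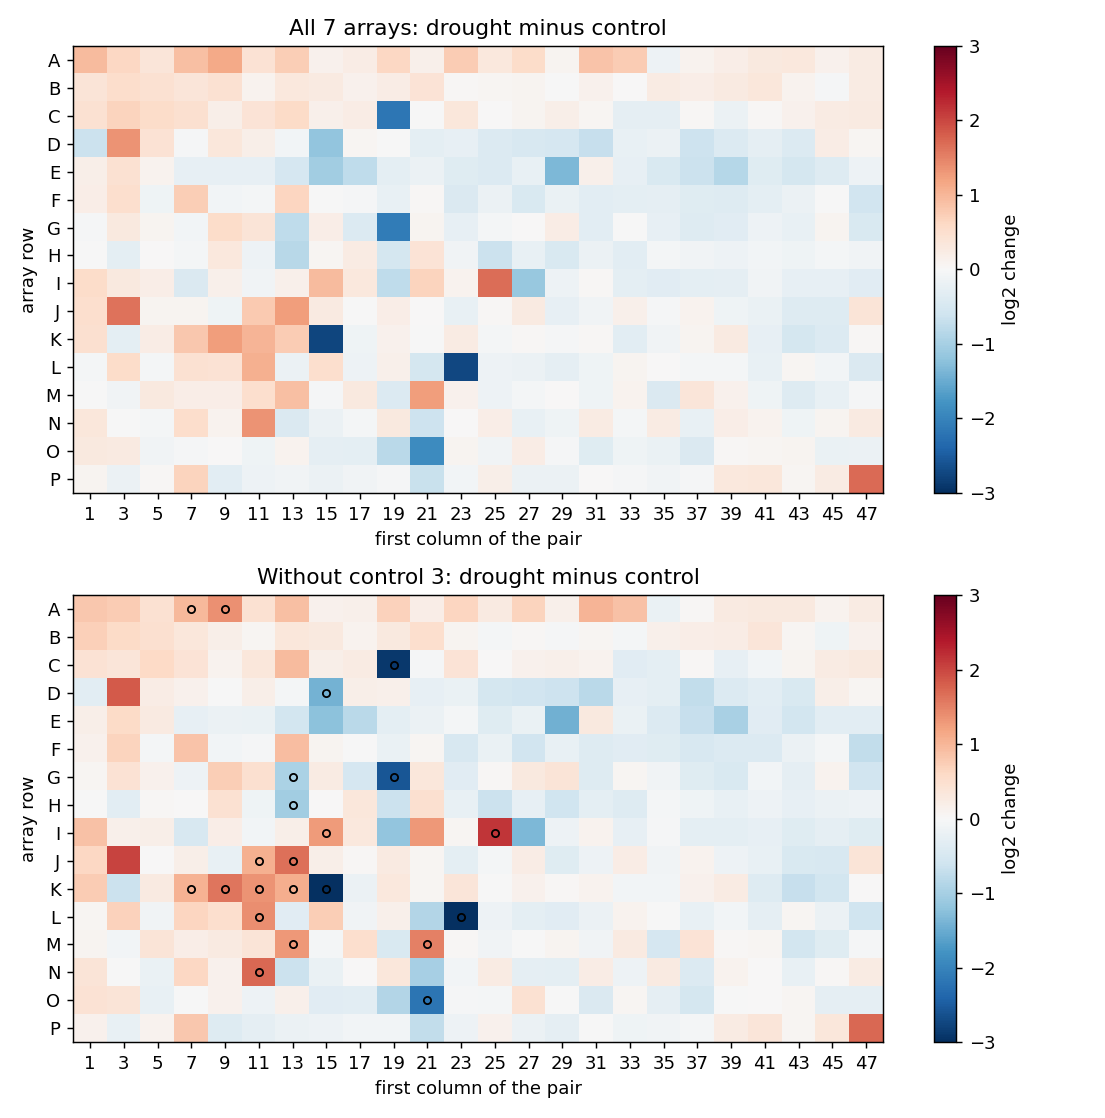
Drought minus control (log2, colour) at each position pair laid out as on the membrane, with rows vertical and the first column of each pair horizontal, for all 7 arrays (top) and without control 3 (bottom). The colour scale ends at -3 and 3, and circles mark the 22 pairs that passed without control 3. The 8 that were lower lie in rows C to O, all at columns under 25, and 12 of the 14 that were higher lie in rows I to N at columns 7 to 26. The columns from 25 up include the low block, which carries little signal, and clustering by position was not tested for either set.

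Signal was also read relative to a bright pair of the same array, which scales each array by that pair in place of quantile normalization. On that scale the 8 falls passed the test without control 3 and none of the 14 rises did. C9/C10 was the brightest pair on each of the 7 arrays, at 1244 to 1647 units over background on controls 1, 2 and 4, 97522 on control 3 and 4803 to 26232 on the drought arrays. Each pair's signal over background was therefore taken as a percent of that of C9/C10 on the same array, a scale chosen after the data were seen. A ratio of this kind shows unequal change between positions and says nothing of C9/C10 itself. On drought 2 nothing was subtracted from the totals, and the low-block limit there was 128 units, so its percents of dim pairs may include background.

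K15/K16 stood at 50%, 45.9% and 65.4% of C9/C10 on controls 1, 2 and 4, at 1.17% on control 3 and at 1.62%, 1.19% and 1.51% on the drought arrays. The mean was 53.7% ± 10.3 on controls 1, 2 and 4 (SD, n = 3) and 1.44% ± 0.224 under drought (SD, n = 3), 37.3-fold apart. With control 3 included the control mean was 40.6% ± 27.6 (SD, n = 4). The fold is of the ratio to C9/C10, not of the pair's own signal. K15 and K16 had 701 to 843 units over background on controls 1, 2 and 4 and 66 to 418 under drought. C9/C10 had 1244 to 1647 units on those controls and 4803 to 26232 under drought. The folds that follow are of the same kind. C19/C20 stood at 51.1%, 43.9% and 48.5% on controls 1, 2 and 4, at 0.673% on control 3 and at 1.7%, 1.47% and 1.51% under drought, 30.7-fold apart without control 3. O21/O22 stood at 19.4%, 18.1% and 26%, then at 1.16% on control 3 and at 0.536%, 1.26% and 0.605% under drought, 26.5-fold apart without control 3. These 3 pairs were above the low block on all 7 arrays. At each of them controls 1, 2 and 4 lay far above the drought arrays, and control 3 lay at or near the level of the drought arrays. L23/L24 stood at 41.7% to 55.5% on controls 1, 2 and 4, at 0.368% on control 3 and at 0.678% to 0.705% under drought. It was not above the low block on drought 2.

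The brighter of the higher pairs of rows I to N stood at overlapping percents in the groups. M21/M22 was at 19.9%, 18.3%, 28.3% and 25.2% on controls 1 to 4 and at 25.8%, 16% and 32.9% on drought 1 to 3. J13/J14 was at 15.3%, 13.1%, 16.5% and 16.7% on the controls and at 18.3%, 10.7% and 17.7% under drought. N11/N12 was at 2.85%, 5.07%, 3.88% and 6.19%, and then at 4.49%, 3.01% and 4.01%. The groups overlapped at all of these pairs. Of the 14 higher calls, 7 were above the low block on all 7 arrays, and their drought mean was 0.581 to 1.18 times the mean of controls 1, 2 and 4.

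**Figure D4:**
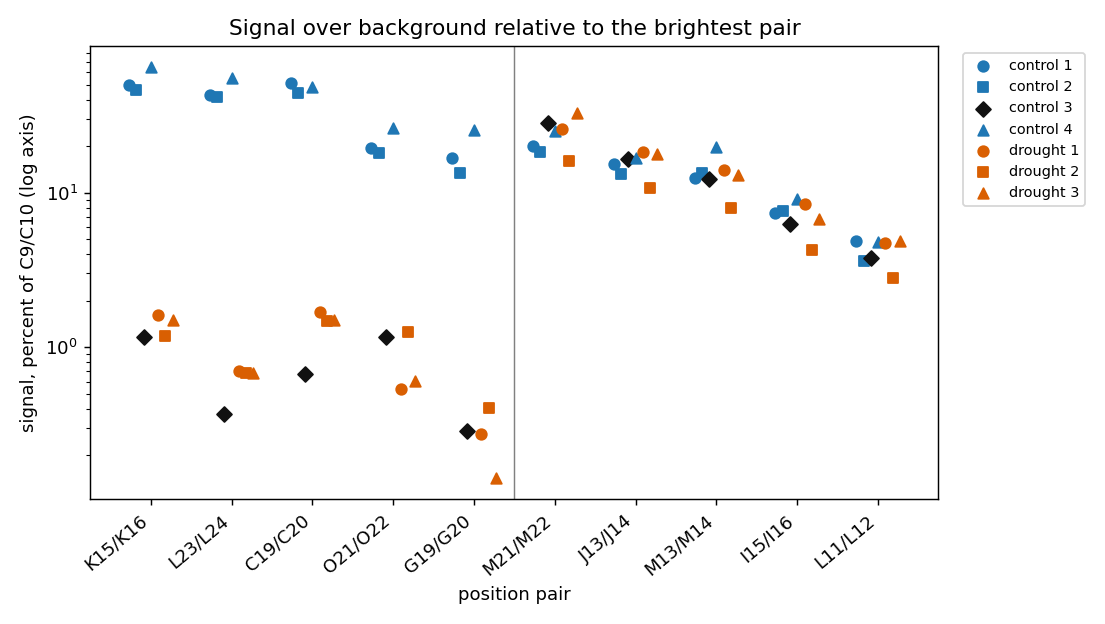
Signal over background as a percent of C9/C10 on the same array (vertical log axis) for 5 pairs that were lower without control 3 (left of the line) and 5 that were higher on the quantile scale (right), with 1 point for each array. At K15/K16, controls 1, 2 and 4 lie at 45.9% to 65.4% and the other 4 arrays at 1.17% to 1.62%, while at J13/J14 all 7 arrays lie between 10.7% and 18.3%.

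A limma fit was made of log2(percent + 1). With all 7 arrays it called 0 pairs (0%), with 24 at an unadjusted p under 0.05, all lower. Without control 3 it called 34 (8.85%), none higher and 34 lower, around a median change of -0.43 log2 units over all pairs. All 8 lower calls of the quantile scale were among the 34, and none of the 14 higher calls were. K15/K16 then changed by -4.47 (SE 0.25, limma adjusted p = 0.00011), and J13/J14 by 0.02 (SE 0.29, limma adjusted p = 0.975). The scale lowers most pairs together, so values are read against that median as well: 13 of the 14 higher calls lay above it and all 8 lower calls below it. I25/I26 stood at 1.41 on this scale (SE 0.56, limma adjusted p = 0.236). Its rise of 2.14 on the quantile scale was the largest of the 14. Its percent of C9/C10 was 0.72 ± 1.25 on controls 1, 2 and 4 and 3.13 ± 1.73 under drought (SD, n = 3 for each). With the control SD above its mean and readings below background counted as 0, the size of that rise is uncertain. M21/M22 stood at 0.18 and K9/K10 at 0.01. N11/N12 stood at -0.20. Among the 20 other pairs above the low block on every array, the drought arrays were all below controls 1, 2 and 4 at 13 and all above them at none, and at those 13 control 3 was also below them. With control 3 counted as a control, drought and control arrays overlapped at all 20. No share over all pairs is given beside the count of 13, so it is not read as particular to these 20. Over all pairs without control 3, 70 of the 72 at an unadjusted p under 0.05 (limma) were lower on this scale.

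**Figure D5:**
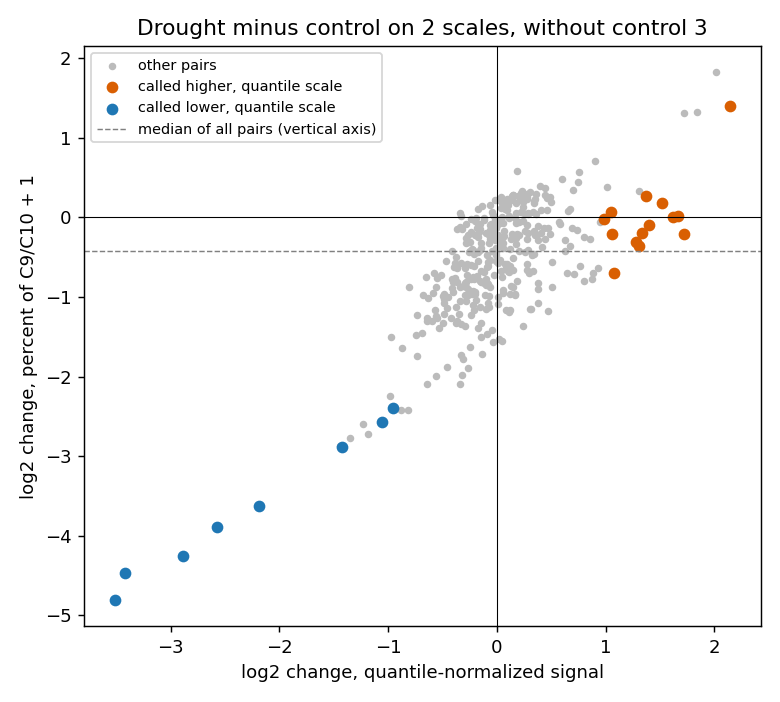
Change under drought without control 3 for all pairs, on the quantile-normalized scale (horizontal, log2) and as log2 of the percent of C9/C10 plus 1 (vertical). The 8 lower calls (blue) are lower on both scales, whereas the 14 higher calls (orange) run from -0.70 to 1.41 on the vertical scale, whose median (dashed line) is -0.43.

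The authors' own scale was traced to a pair of spots. Their normalized volume is headed percent, and on each of the 14 arrays of the series it equalled the spot's volume as a percent of the mean volume at G21 and G22, within a relative difference of 1.2e-03. The next closest combination of 2 spots, G22 with G27, was off by a relative 0.112 in the median over arrays. In A. thaliana that reference was dim on controls 1, 2 and 4, at a mean volume of 15.9, 11 and 43.7 units, and was not above the low block on any of them. It was above it on control 3 (792 units) and on drought 1 to 3 (20.7, 131 and 116 units). On the authors' scale limma called 0 pairs, with 18 at an unadjusted p under 0.05, and the median change over all pairs was 0.15. K15/K16 was lower and M21/M22 higher on that scale too, and all 22 pairs that passed without control 3 kept their direction there with all 7 arrays.

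None of the 5 brightest pairs passed the test with all 7 arrays. By mean signal over the 7 arrays they were C9/C10, D3/D4, J3/J4, M21/M22 and P23/P24. C9/C10 read 12.34 to 12.77 on every array. As it was the brightest pair on each array, quantile normalization holds it near the top value, so this reading cannot show a change. P23/P24 read 10.01 to 10.72, for a fitted difference of -0.07 (SE 0.21, limma adjusted p = 0.932). As a percent of C9/C10 without control 3, P23/P24 changed by -1.33 (SE 0.35, limma adjusted p = 0.0709). The median of all pairs on that scale was -0.43. D3/D4 and J3/J4 read 11.40 to 12.50 and 11.47 to 12.20 on 6 arrays, but 5.17 and 6.01 on control 1. On that array the deposited background at D3 was 3971 units against a total of 3421, so that the difference was negative. The fitted differences of 1.35 at D3/D4 (SE 1.66) and 1.62 at J3/J4 (SE 1.32) rest on that reading. Without control 1 the fitted difference turned to -0.47 at D3/D4 (SE 0.29, limma adjusted p = 0.76) and was 0.21 at J3/J4 (SE 0.24, limma adjusted p = 0.894).

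With all 7 arrays, the share of pairs that could be measured differed between the groups by less than the spread between arrays. Pairs above the low block made up 27.4%, 32.6%, 76% and 25% of those outside it on controls 1 to 4 and 61.1%, 35.8% and 43.4% on drought 1 to 3. The means were 40.3% ± 24.1 (SD, n = 4) and 46.8% ± 13 (SD, n = 3), with an exact permutation p of 0.629, a difference of 6.48 percentage points. Without control 3 the control mean was 28.4% ± 3.9 (SD, n = 3), the groups did not overlap and the difference was 18.4 percentage points (exact permutation p = 0.1, the smallest that 3 arrays against 3 allow). The 10 brightest pairs held 41.1%, 40.1%, 76.9% and 40.5% of the summed signal on the controls and 72.2%, 47.1% and 72.1% under drought, a difference of 14.1 percentage points (exact permutation p = 0.229, 2-sided, over 35 splits, adjusted over 3 array measures to 0.343). Control 3 was again at the drought level or beyond it. Without it the difference was 23.2 percentage points, and no overlap remained, again with an exact permutation p of 0.1. Rank agreement between both spots of each pair was 0.228, 0.392, 0.796 and 0.418 on the controls and 0.715, 0.955 and 0.575 under drought (exact permutation p = 0.171). On drought 2 the spots correlated at 0.954 in the low block as well, so that value is not a measure of probe signal.

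The median deposited background was 2202 to 2465 units on the controls and 142, 0 and 2086 units on drought 1 to 3, so background level and treatment go together apart from drought 3. With background level as a block limma called 0 pairs, and it also called 0 when only the 5 high-background arrays were used, a fit in which the lone drought array is assumed to vary like the controls. The smallest adjusted p with the block was 0.996 (limma), and the part of background level in the differences was not tested further.

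The pair of the largest fall read differently in B. oleracea. K15/K16 stood at 0% to 0.0199% of C9/C10 on the 4 B. oleracea controls, where it was not above the low block, and at 0.155%, 1.42% and 0.611% on the 3 drought arrays. The B. oleracea controls stood at 0.238% to 1.77% at L23/L24, 0.173% to 1.57% at C19/C20 and 0.0318% to 0.952% at O21/O22. These values lie well below A. thaliana controls 1, 2 and 4. Correlations were taken over the 19 pairs above the low block on all 7 A. thaliana arrays and the 3 B. oleracea drought arrays. Those B. oleracea arrays correlated at 0.274 to 0.435 with A. thaliana controls 1, 2 and 4. They correlated at 0.512 to 0.868 with control 3 and at 0.461 to 0.902 with A. thaliana drought. The B. oleracea controls took no part in these correlations. In a fit of all 14 arrays, the drought response differed between the species at 1 pair, E29/E30 (0.26%), by 2.32 log2 units (SE 0.42, limma adjusted p = 0.0328). Without A. thaliana control 3 the count was 7 (1.82%), namely K15/K16, L23/L24, O21/O22, C19/C20, G19/G20, L11/L12 and E29/E30. L11/L12 was the only one of the 7 that was higher in droughted A. thaliana. At E29/E30 the B. oleracea signal was 0% of C9/C10 on all 4 controls and 0.438%, 1.76% and 0.635% under drought. At G19/G20 it was 0%, 0%, 0.57% and 1.87% on the controls and 0.214%, 0.938% and 0% under drought. The B. oleracea response at these pairs thus includes readings at or below background.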

How the data were processed

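The authors deposited, per the file headers, a total intensity, a background intensity and a volume intensity for each spot, on a linear scale, and which imager or software made them is not given in the sources used here. Each volume is the total minus the background, with negative differences set to 0. The deposited normalized volume, headed percent and treated here as a score, is the volume relative to G21 and G22, and the deposited value table repeats it on all 14 arrays, with every spot equal within 0.01. Totals and backgrounds of the 7 arrays were corrected with normexp in limma 3.58.1 (R 4.3.3). The offset of 17.7 units is the median total over the 14 arrays divided by 10, since the same rule on these 7 arrays gives 218. Values were put on the log2 scale, quantile normalized over the 7 arrays and averaged over each pair. limma fitted drought minus control with Benjamini-Hochberg adjustment over all pairs and a threshold of 0.05. In simulated data it recovered 22 of 40 pairs changed by 1 log2 unit, 36 of 40 changed by 2 and 37 of 40 changed by 3, with 1 to 2 false calls. The simulated noise was independent between pairs, and no array departed from its group at many pairs together, as control 3 did. These rates therefore do not give the power of the test on the 7 arrays. Array measures were compared by exact permutation.

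Named pairs were the 10 with the smallest p in each direction, the 5 brightest, and those called without control 3 or drought 2. The members and lists were chosen with earlier results of these data known. Lists of PP2C, abscisic acid, dehydration and cell type marker genes could not be counted, as positions carry no names, and how the labels' 522 features map onto the spots is unknown. The number of arrays limits precision.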

Additional observations from a re-analysis of the deposited data

Results flagged for a closer look

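Several values stood far from the other controls of their group of 4, by Dixon's gap ratio at the 95% level. Of 36 groups of 4 examined, 10 held such a value, where chance gives about 1 in 20 for groups not chosen by their values. That comparison does not hold here: the pairs share arrays, and I15/I16, M13/M14, K13/K14 and K7/K8 are named only because they passed with control 3 left out, which favours pairs with controls 1, 2 and 4 close together. Control 3 was the array at 8 of the 10. It read lowest at L23/L24 (7.03) and highest at A7/A8 (7.00), I15/I16 (9.52), M13/M14 (10.48), K13/K14 (9.70) and K7/K8 (7.81). It also had the highest share of pairs above the low block (76%) and the highest share of signal in the 10 brightest pairs (76.9%). Control 1 read lowest at D3/D4 (5.17) and J3/J4 (6.01), where its deposited background was above the total at D3 and J3.

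The response of E29/E30 differed between the species by a test of the difference itself, with B. oleracea minus A. thaliana at 2.32 log2 units (limma adjusted p = 0.0328). It was no longer called without drought 2 or drought 3 of A. thaliana, with cyclic loess, with no background subtraction, or with background level as a block. The B. oleracea controls were at or below background at this pair (0% of C9/C10 on all 4).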

How the results depend on the processing

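The count of pairs changed by drought was 0 in the analysis reported and stayed 0 under the other backgrounds, offsets, normalizations, filters, weights and blocks tried, the exceptions being 5 with both spots kept and an estimated correlation and 30 without both control 3 and drought 2. Over the fits that left out 1 array it ran from 0 to 34, with 22 and 34 without control 3 (34 on the percent of C9/C10 scale, which was chosen after seeing the data, as was a fit limited to columns 7 to 48) and 0 without any other array. With the replicate number as a block the count was 0. Deviations of arrays with the same number correlated at -0.0023, 0.0818 and 0.0846, so the numbers were not taken to pair the arrays. The difference between the species was called at 8 pairs with no background subtraction, 2 with median scaling, 0 with cyclic loess, 4 with array weights and 0 with background level as a block, and at 0 to 7 pairs when 1 A. thaliana array was left out. The cause of these shifts was not tested.

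The share of pairs above the low block was 6.48 percentage points higher under drought. It was -6.63 when the highest low-block pair set the limit, and ran from -0.694 to 18.4 when 1 array was left out. The difference in spot agreement ran from 0.187 to 0.403 and that in the share of the 10 brightest pairs from 9.97 to 23.2. Among single pairs, H13/H14 turned to 0.13 and O19/O20 went to -0.05 with no background subtraction. Of the 29 named values, 22 shrank by over 1.5 times with the offset from the 7 arrays (A7/A8 to 0.39, E39/E40 to -0.25), 11 with cyclic loess (M21/M22 to 0.32, J13/J14 to 0.42) and 11 with no background subtraction, where 12 grew as much. The percent of C9/C10 scale lowers most pairs together, so a value below 0 there is not by itself a reversal relative to other pairs. On it 8 of the higher pairs lay below 0: N11/N12 (-0.16), J13/J14 (-0.01), I15/I16 (-0.23), M13/M14 (-0.30), L11/L12 (-0.05), K13/K14 (-0.56), K11/K12 (-0.12) and J11/J12 (-0.13), against a median of -0.29 over all pairs. Without control 3 on that scale the values were -0.02 at A7/A8, -0.20 at N11/N12, -0.25 at A1/A2, -0.31 at I15/I16, -0.36 at M13/M14, -0.09 at L11/L12, -0.70 at K13/K14, -0.20 at K11/K12 and -0.20 at J11/J12. Dim signal limits the rest: 27 pairs outside the low block were above it on no array.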
